A study of Mus musculus with 4 samples.

Results

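The E2F transcription factors and the RB pocket proteins were followed as 10 genes, E2f1 to E2f8, Rb1 and Rbl1. They were taken by gene symbol from the 40092 rows of the deposited gene count file, and all 10 were found and had enough counts to enter the test with 16661 genes. The counts came from RNA-seq of GFP+ alveolar type II (AT2) cells, the surfactant-producing progenitors of the alveolus, sorted from mouse lung on day 14 after bleomycin, a drug that injures the alveolar epithelium. The Ctrl group had 2 libraries with the genotype Alkbh5flox/+; Sftpc-CreERT2; Rosa26-mTmG, and the A5-CKO group had 2 libraries with Alkbh5flox/flox; Sftpc-CreERT2; Rosa26-mTmG. Alkbh5 encodes an RNA demethylase that removes m6A. Mice of both groups received tamoxifen, which activates a Cre driven by the Sftpc promoter and turns recombined cells green, so the Ctrl cells had also been exposed to Cre and could lose their single floxed allele. No uninjured group was analysed here, and the labels do not say that the 2 libraries of a genotype are separate mice, so p-values measure only the spread between these libraries.

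E2F factors bind promoters of genes needed for DNA synthesis and cell division. E2F1, E2F2 and E2F3 are known as activators, E2F4 and E2F5 mostly as repressors that work with a pocket protein, E2F6 as a repressor that acts with Polycomb-type complexes without a pocket protein, and E2F7 and E2F8 as atypical repressors that bind DNA without a DP partner. The pocket proteins RB (Rb1), p107 (Rbl1) and p130 (Rbl2) hold E2Fs in check until cyclin-dependent kinases phosphorylate them. In the lung, AT2 cells are mostly out of the cycle and enter it during repair after injury. Several of these genes are themselves known E2F targets, among them E2f1, E2f2, E2f7, E2f8 and Rbl1.

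Because the family can act on its own promoters, the promoter windows of the members were read first. RefSeq windows (GRCm38.p6, from 250 bases before to 50 bases after a transcript start) were matched for 7 of the 10 genes in 9 windows. E2f4, E2f5 and Rb1 were not matched. The E2f1 window (chr2:154569377-154569676, minus strand) lay inside the gene, so the promoter at its 5′ end (154569892) was not read. The E2f8 window (chr7:48881547-48881846, minus strand) also lay short of the RefSeq end of its gene (48882073). The words searched on both strands for an E2F site were TTTCCCGC, TTTCGCGC, TTTGCCGC and TTTGGCGC. They were present in a window of 4 genes, E2f2, E2f3, E2f7 and Rbl1, that is in 44.4% of the member windows, against 2.26% of all 32851 windows of the same length and 35.6% of the 45 windows of E2F G1/S target genes. The words for the cell cycle homology region (CHR), TTTGAA and TTCGAA, were present in a window of 3 genes, E2f2, E2f3 and E2f8. That is 33.3% of the member windows, against 19.2% of all windows and 15.6% of the windows of E2F G1/S target genes. No word of either set contains a word of the other. A match describes these letters and is not a site shown to be bound. The E2F word and the CHR word of E2f2 lay in windows of different starts, and its CHR word (chr4:136180739-136180768) is not shown. The stretches below are those of the other words, in genes that differed in their pattern over the libraries. Each reads 5′ to 3′ on the strand of its gene, with the word in capitals.

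E2f2 (E2F word, 39 bases after the start, chr4:136172294-136172323, plus strand): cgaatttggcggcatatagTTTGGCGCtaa

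E2f3 (E2F word on the opposite strand, 11 bases before the start, chr13:29986056-29986085, minus strand): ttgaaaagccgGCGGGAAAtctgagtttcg

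E2f7 (E2F word on the opposite strand, 198 bases before the start, chr10:110745230-110745259, plus strand): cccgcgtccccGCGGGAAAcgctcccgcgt

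Rbl1 (E2F word, 18 bases before the start, chr2:157204534-157204563, minus strand): aagaaggcgatTTTCGCGCgctttgtcgcg

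E2f3 (CHR word, 23 bases before the start, chr13:29986069-29986098, minus strand): atgcaaatatggTTTGAAaagccggcggga

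E2f8 (CHR word on the opposite strand, 20 bases before the start, chr7:48881599-48881628, minus strand): gagcgggttaatTTCAAAtcgggggctgga

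In E2f3 the E2F word and the CHR word lay side by side just before the start. E2f2 and Rbl1 carried an E2F word within 39 bases of the start, whereas that of E2f7 lay further upstream.

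The libraries held 18144865 to 20811757 counts. Levels are given as CPM, the depth-normalized count of a gene relative to its library's total times edgeR's TMM factor. On this scale 3 counts, the floor taken for detection, correspond to 0.128 to 0.177 CPM. The floor covers counting error only. Alkbh5, the targeted gene, had 81.6 and 152 CPM in Ctrl against 19.3 and 36.5 in A5-CKO (log2 fold change -2.06, SE 0.46, adjusted p = 0.528 in edgeR), so the genotypes did not overlap although the test was not passed. Sftpc, the defining AT2 transcript, had 7842 to 16360 CPM, and all 10 AT2 markers were detected in every library, with a summed level of 55155 to 78943 CPM in Ctrl and 33411 to 40404 in A5-CKO. The part of that difference in the results on the E2F and RB genes was not tested. Libraries of the same genotype were further apart than counting noise (chi-square over degrees of freedom 110 for Ctrl and 96.4 for A5-CKO). The lowest value of any pair was between genotypes, 88.7 for Ctrl 1 with A5-CKO 2, so the libraries did not group by genotype on this measure. A5-CKO 2 stood apart in mesenchymal markers, as given beside the results it touches.

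The comparison of A5-CKO with Ctrl asks whether loss of Alkbh5 in injured AT2 cells went with other transcript levels of the E2F and RB genes. E2f2 had a lower level in A5-CKO, with both libraries under both of Ctrl, and Rb1 had a higher one. E2f3 and Rbl1 were also higher in both A5-CKO libraries and E2f4 was lower in both, with smaller or less even differences. E2f7 and E2f8 were high in A5-CKO 2 alone. E2f1, E2f5 and E2f6 overlapped between the genotypes. By the quasi-likelihood test of edgeR, with p adjusted by Benjamini-Hochberg, 0 of the 10 genes passed an adjusted p of 0.05 (smallest 0.528), and this was so for 0% of all genes tested. DESeq2 on the same genes called 0 members, against 0.33% of all genes. At an unadjusted p under 0.05, 1 member was found by edgeR (E2f2) and 2 by DESeq2 (E2f2 and Rb1). Among all genes tested, 9.18% had an unadjusted p under 0.05 in edgeR and 10.7% in DESeq2.

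In the plot of CPM by library, the 10 genes span levels from under 1 to nearly 100 CPM. The groups did not overlap for 5 of the 10 genes, with 3 higher and 2 lower in both A5-CKO libraries. Of all genes tested, 20.2% were higher and 23.6% lower in this way, so the share among the members was near the background. In bulk samples, fewer cells that express a gene and less RNA of it per cell cannot be told apart.

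**Figure D1:**
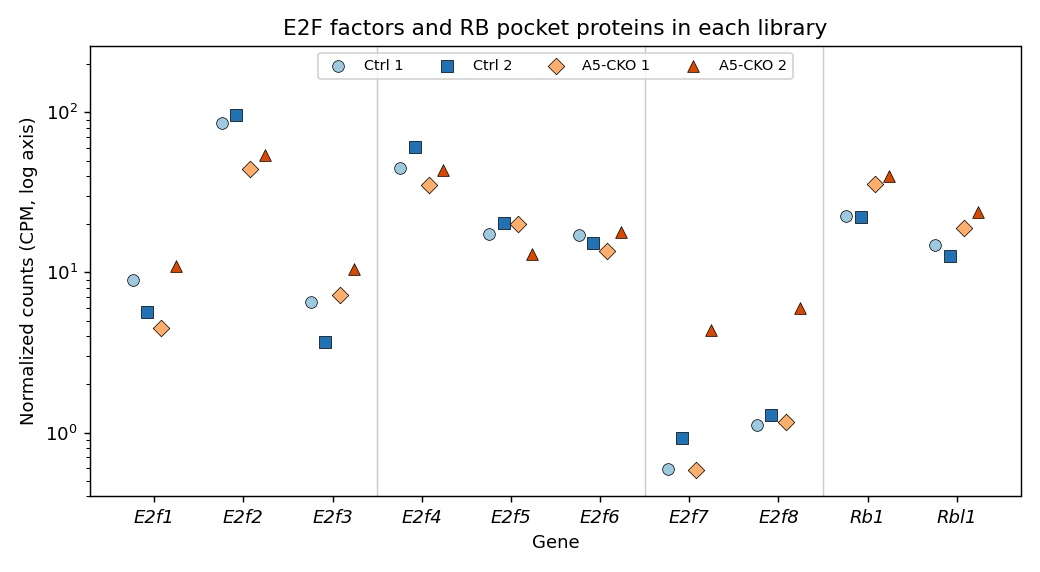
Normalized counts (CPM, log axis) of the 10 genes, 1 point per library, in the order activators, repressors, atypical E2Fs and pocket proteins. E2f2 lies lower in both A5-CKO libraries (44.1 and 54.1) than in both Ctrl libraries (86.4 and 96.3), Rb1 lies higher (35.5 and 39.9 against 22.6 and 22.3), and E2f7 and E2f8 are high in A5-CKO 2 alone.

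Among the activators, E2f2 (chromosome 4, 136172274 to 136196057, GRCm38.p6, plus strand) had 86.4 and 96.3 CPM in Ctrl against 44.1 and 54.1 in A5-CKO. Both A5-CKO libraries were well below both Ctrl libraries, and the 2 libraries of each genotype lay close together. Means were 91.3 ± 7.01 CPM (SD, n = 2) for Ctrl and 49.1 ± 7.13 (SD, n = 2) for A5-CKO. The fitted log2 fold change was -0.89 (SE 0.29), with an adjusted p of 0.528 in edgeR and an unadjusted p of 0.0178 from the edgeR model fitted across all genes. Leaving out single libraries gave -1.05 to -0.75. With total counts only, a scaling that moves the median of all genes from -0.017 to 0.30, it was -0.57. E2f2 rested on 975 to 1656 counts per library, the most of any member.

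E2f3 (chromosome 13, 29906575 to 29986064, minus strand), the activator with the CHR word beside its E2F word, had 6.50 and 3.66 CPM in Ctrl against 7.23 and 10.5 in A5-CKO. The A5-CKO libraries were both higher, but A5-CKO 1 was only slightly above Ctrl 1. The fitted log2 fold change was 0.80 (SE 0.54, adjusted p = 0.608 in edgeR). Its size varied with the libraries used, from 0.43 without Ctrl 2 and 0.51 without A5-CKO 2 to 1.04 without A5-CKO 1 and 1.36 without Ctrl 1. E2f1 (chromosome 2, 154559400 to 154569892, minus strand), the activator best known for linking proliferation and apoptosis, had 8.92 and 5.64 CPM in Ctrl against 4.52 and 11 in A5-CKO. The highest and the lowest value were thus both in A5-CKO. Its log2 fold change was 0.095 (SE 0.59, adjusted p = 0.963 in edgeR), which became -0.69 without A5-CKO 2 and 0.60 without A5-CKO 1. The 3 activators therefore held 3 different patterns, lower, higher and split.

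Among the repressors, E2f4 (chromosome 8, 105297663 to 105305370, plus strand), the main E2F of quiescent cells, had 44.7 and 61.2 CPM in Ctrl against 35.2 and 43.4 in A5-CKO. Both A5-CKO libraries were lower, A5-CKO 2 only just below Ctrl 1. The fitted log2 fold change was -0.43 (SE 0.32, adjusted p = 0.645 in edgeR), and it was -0.21 without Ctrl 2, -0.10 with total counts only and -0.072 with a correction for transcript length and GC content that was added after the data were seen. E2f5 (chromosome 3, 14578602 to 14606309, plus strand), which also acts with p107 and p130, had 17.3 and 20.5 CPM in Ctrl against 20.1 and 13.1 in A5-CKO. The genotypes overlapped, with A5-CKO 2 the lowest library. The fitted log2 fold change was -0.18 (SE 0.40, adjusted p = 0.887 in edgeR), and with total counts only its sign turned, to 0.14. E2f6 (chromosome 12, 16810909 to 16826752, plus strand) varied least, with 17.1 and 15.2 CPM in Ctrl against 13.7 and 17.8 in A5-CKO. Its log2 fold change was -0.040 (SE 0.38, adjusted p = 0.977 in edgeR). The sign of so small a value turned in 9 of the 16 alternatives.

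E2f7 and E2f8 were the lowest of the 10 genes and had the widest spread. E2f7 (chromosome 10, 110745439 to 110787384, plus strand) had 10 counts in Ctrl 1, 16 in Ctrl 2, 13 in A5-CKO 1 but 103 in A5-CKO 2. On the CPM scale these were 0.591, 0.930, 0.587 and 4.39, so A5-CKO 2 was 4.72-fold above the highest of the other libraries while A5-CKO 1 lay at the level of Ctrl. E2f8 (chromosome 7, 48866429 to 48882073, minus strand), its close paralog, had 19 and 22 counts in Ctrl against 26 and 140 in A5-CKO. Its CPM values were 1.12 and 1.28 in Ctrl against 1.17 and 5.97 in A5-CKO, and A5-CKO 2 was 4.67-fold above the highest other library. The same single library was high for both genes. The log2 fold changes were 1.71 for E2f7 (SE 1.01, adjusted p = 0.578 in edgeR) and 1.57 for E2f8 (SE 0.87, adjusted p = 0.565 in edgeR). Without A5-CKO 2 they were -0.37 and -0.030, and without A5-CKO 1 they were 2.52 and 2.31, so a single library decides the direction of both.

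A5-CKO 2 also had the highest mesenchymal and leukocyte marker levels. The summed level of 8 mesenchymal markers was 1103 CPM there, against 98.6 in A5-CKO 1 and 156 and 425 in Ctrl 2 and Ctrl 1, with 7 of the 8 detected in every library. That of 13 leukocyte markers, all detected in every library, was 862 CPM in A5-CKO 2, against 328 in A5-CKO 1 and 377 and 685 in Ctrl 2 and Ctrl 1. The 7 endothelial markers summed to 95.7 and 147 CPM in A5-CKO and 94.2 and 158 in Ctrl, with Cldn5 listed at 0 in every library. Epithelial markers differed in A5-CKO 2 as well. The summed level of 8 markers of cells in transition from AT2 to AT1 was 2690 CPM there, against 1482 in A5-CKO 1 and 2511 and 959 in Ctrl 1 and Ctrl 2. Its AT2 and its club or ciliated marker sums were the lowest, at 33411 and 1284 CPM. The part of these differences in the values of E2f7 and E2f8 was not tested.

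Both pocket proteins among the members were higher in both A5-CKO libraries. Rb1 (chromosome 14, 73192858 to 73325951, minus strand), the retinoblastoma tumor suppressor, had 22.6 and 22.3 CPM in Ctrl against 35.5 and 39.9 in A5-CKO. The Ctrl libraries were nearly equal, and both A5-CKO libraries were clearly above them. Means were 22.4 ± 0.212 CPM (SD, n = 2) for Ctrl and 37.7 ± 3.06 (SD, n = 2) for A5-CKO. The fitted log2 fold change was 0.75 (SE 0.32, adjusted p = 0.528 in edgeR), with an unadjusted p of 0.0503 from the edgeR model fitted across all genes. Leaving out single libraries gave 0.67 to 0.84, the narrowest such range of the 10 genes. With the correction for length and GC content it was 0.35. Rb1 shares exon bases on the opposite strand with Rcbtb2 and Lpar6 in GENCODE M21, and since whether the counting used strand is not given in the sources used here, reads from the shared bases cannot be told apart. Lpar6 had 184 and 169 counts in Ctrl against 443 and 323 in A5-CKO, and Rcbtb2 had 815, 660, 853 and 908. The same limit holds for E2f8, which shares 610 exon bases on the opposite strand with Gm2788. It also holds for E2f7, with 86 shared with 1700020G17Rik, and for E2f5, with 26 shared with 1810022K09Rik. Gm2788 and 1700020G17Rik had 6 and 2 counts in A5-CKO 2 and 0 in Ctrl and A5-CKO 1.

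Rbl1 (chromosome 2, 157145893 to 157204534, minus strand), which encodes p107 and is itself an E2F target, had 14.8 and 12.6 CPM in Ctrl against 18.9 and 23.8 in A5-CKO. Both A5-CKO libraries were higher. Its log2 fold change was 0.64 (SE 0.37, adjusted p = 0.577 in edgeR), 0.47 to 0.85 on leaving out single libraries, and 0.27 with the correction for length and GC content. Rbl2, the third pocket protein, is not among the 10 genes and had 44.7 and 78.4 CPM in Ctrl against 66.2 and 45.4 in A5-CKO. Its values overlapped, and its log2 fold change was -0.14 (SE 0.38, adjusted p = 0.909 in edgeR).

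**Figure D2:**
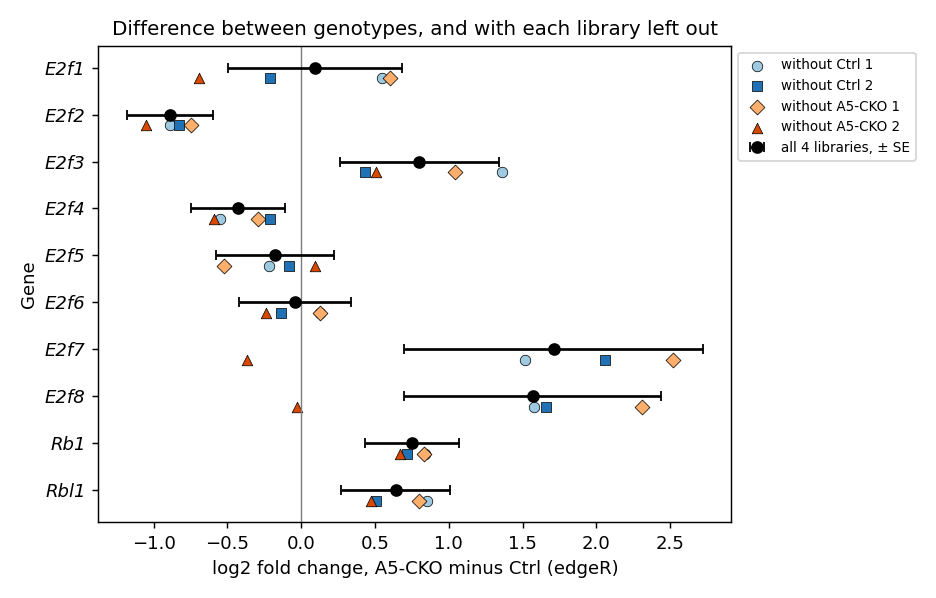
Log2 fold change of A5-CKO minus Ctrl for each gene (black, with the standard error, n = 2 libraries per genotype) and the value with each library left out (colored symbols). E2f2, E2f3, E2f4, Rb1 and Rbl1 keep their side of 0, whereas E2f7 and E2f8 move from 1.71 and 1.57 to -0.37 and -0.030 without A5-CKO 2.

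The fold changes of the 10 genes ran from -0.89 to 1.71, with 6 above 0 and 4 below it. Their median was 0.37, against -0.017 for all genes tested. Without A5-CKO 2 it was -0.13, against -0.075 for all genes tested.

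Ratios of counts within a library do not depend on a single scaling factor per library. The ratio of Rb1 to E2f2 counts was 0.261 and 0.231 in Ctrl against 0.806 and 0.736 in A5-CKO. The ratio of Rb1 to E2f4 counts was 0.505 and 0.364 in Ctrl against 1.01 and 0.919 in A5-CKO. Both were higher in both A5-CKO libraries, by more than the libraries of a genotype differed. With the correction for length and GC content, the log2 fold changes behind them were closer together, 0.35 for Rb1, -0.75 for E2f2 and -0.072 for E2f4. The ratio of E2f2 to E2f4 counts was 1.93 and 1.57 in Ctrl, whereas both A5-CKO libraries had 1.25, so E2f2 was lower also relative to its repressor relative. The ratio of Rb1 to Rbl1 counts was 1.52 and 1.77 in Ctrl against 1.88 and 1.67 in A5-CKO and overlapped. These pairs were chosen after the values were seen, and a permutation of 2 against 2 libraries cannot give a two-sided exact p under 0.333.

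Levels of different genes were compared as CPM per kb of the longest GENCODE M21 transcript. In Ctrl, E2f4 was the highest at 26.6 ± 5.83 CPM per kb (SD, n = 2), followed by E2f2 at 19.3 ± 1.48, E2f5 at 10.6 ± 1.25, E2f6 at 5.36 ± 0.445 and Rb1 at 4.81 ± 0.0454. Rbl1 had 2.82 ± 0.330 CPM per kb, E2f1 2.64 ± 0.842, E2f3 0.997 ± 0.393, E2f8 0.325 ± 0.0300 and E2f7 0.139 ± 0.0439. Neighbours in this order were apart in both Ctrl libraries except Rbl1 and E2f1, which overlapped. Within the A5-CKO libraries, E2f5 lay above E2f2 in A5-CKO 1 (11.3 against 9.3 CPM per kb) and below Rb1 in A5-CKO 2 (7.39 against 8.56). The order of the A5-CKO means differed from that of Ctrl in 1 place, with Rb1 (8.09 ± 0.658 CPM per kb) above E2f6 (5.21 ± 0.951). With the union of exons as the length, Rb1 ranked above E2f6 and E2f1 above Rbl1 in Ctrl too.

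Of the summed E2F level per kb, E2f4 held 36.8% and 43.3% in Ctrl against 38.1% and 39.6% in A5-CKO, both within the range of Ctrl. The share of E2f2 was 29.9% and 28.7% in Ctrl against 20.1% and 20.8% in A5-CKO. The means were 29.3% ± 0.848 (SD, n = 2) and 20.5% ± 0.502 (SD, n = 2), and 47.2% and 34.3% where levels were not divided by length. E2f3 held 2.09% and 1.01% in Ctrl against 3.07% and 3.73% in A5-CKO. E2f5 held 24.4% in A5-CKO 1 against 13.5% to 16.2% in the other libraries. E2f7 and E2f8 together made up 0.676% and 0.729% of the Ctrl sums, 0.920% of that of A5-CKO 1 and 4.41% of that of A5-CKO 2. A share can differ because another member differs, and the shares of a library sum to the whole.

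**Figure D3:**
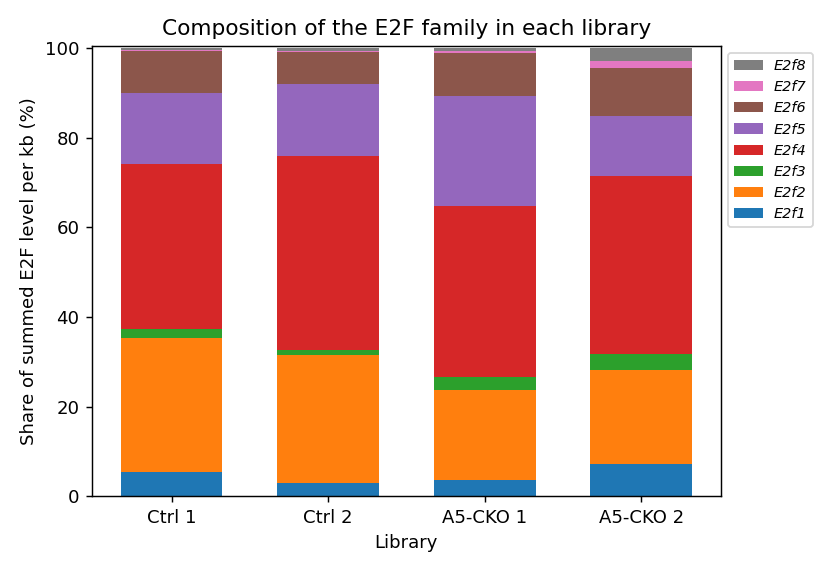
Share of each E2F gene in the summed E2F level of a library (CPM per kb of the longest transcript, in percent), 1 bar per library. E2f4 holds 36.8% to 43.3% in every library, E2f2 holds 29.9% and 28.7% in Ctrl against 20.1% and 20.8% in A5-CKO, and E2f7 with E2f8 are visible mainly in A5-CKO 2 (4.41%).

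By library, 7 of the 10 genes were highest in A5-CKO 2, against 20.2% of all genes tested. They were E2f1, E2f3, E2f6, E2f7, E2f8, Rb1 and Rbl1. The median log2 deviation of the 10 genes from their own means was 0.47 in A5-CKO 2, against -0.29 in A5-CKO 1 and -0.016 and -0.28 in Ctrl 1 and Ctrl 2. For all genes tested it was -0.037 in A5-CKO 2. The same library had the highest mesenchymal, leukocyte and transitional marker sums and the lowest AT2 and club or ciliated sums. The part of these differences in this pattern was not tested.

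The genes on which E2Fs act were also mostly highest in A5-CKO 2. Of 50 known G1/S targets of E2F, such as the MCM helicase subunits and enzymes of nucleotide synthesis, 48 were tested, 39 with a log2 fold change above 0 and 9 below, and their median was 0.49. For 38 of the 48 (79.2%) the highest library was A5-CKO 2. Their median log2 deviation was 0.48 there, -0.20 in A5-CKO 1, and -0.088 and -0.30 in Ctrl 1 and Ctrl 2. The median of the targets was -0.075 once A5-CKO 2 was left out, with 21 above 0 and 27 below. That of all genes tested was then -0.075 as well. By edgeR 0 of the 48 passed an adjusted p of 0.05, and 2 had an unadjusted p under 0.05, whereas 9.18% of all genes did.

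Those 2 were Mcm10, a factor that starts replication forks, and Hells, a chromatin remodeler. Mcm10 had 1.77 and 1.45 CPM in Ctrl against 4.93 and 5.21 in A5-CKO (log2 fold change 1.65, SE 0.57, adjusted p = 0.528 in edgeR). It was high in both A5-CKO libraries, unlike most of the list. Hells had 3.01 and 1.63 CPM in Ctrl against 4.79 and 9.26 in A5-CKO (log2 fold change 1.60). The targets next by p with a positive fold change were Chek1, a checkpoint kinase (1.49), Ezh2, the Polycomb methyltransferase (0.86), and Clspn, which helps to activate Chek1 (1.72). On the negative side the smallest p values belonged to Fen1 (-0.64), Rpa2 (-0.40), Slbp (-0.26), Rfc4 (-0.33) and Chaf1b (-0.31). Mki67, a marker of cycling cells, had 12.0 and 4.54 CPM in Ctrl against 23.1 and 29.4 in A5-CKO (log2 fold change 1.67, SE 0.53, adjusted p = 0.528 in edgeR). It was thus high in both A5-CKO libraries, where E2f7 and E2f8 were high in A5-CKO 2 alone. Top2a, another marker of cycling cells, overlapped, with 18.6 and 8.02 CPM in Ctrl against 14.6 and 36.2 in A5-CKO.

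**Figure D4:**
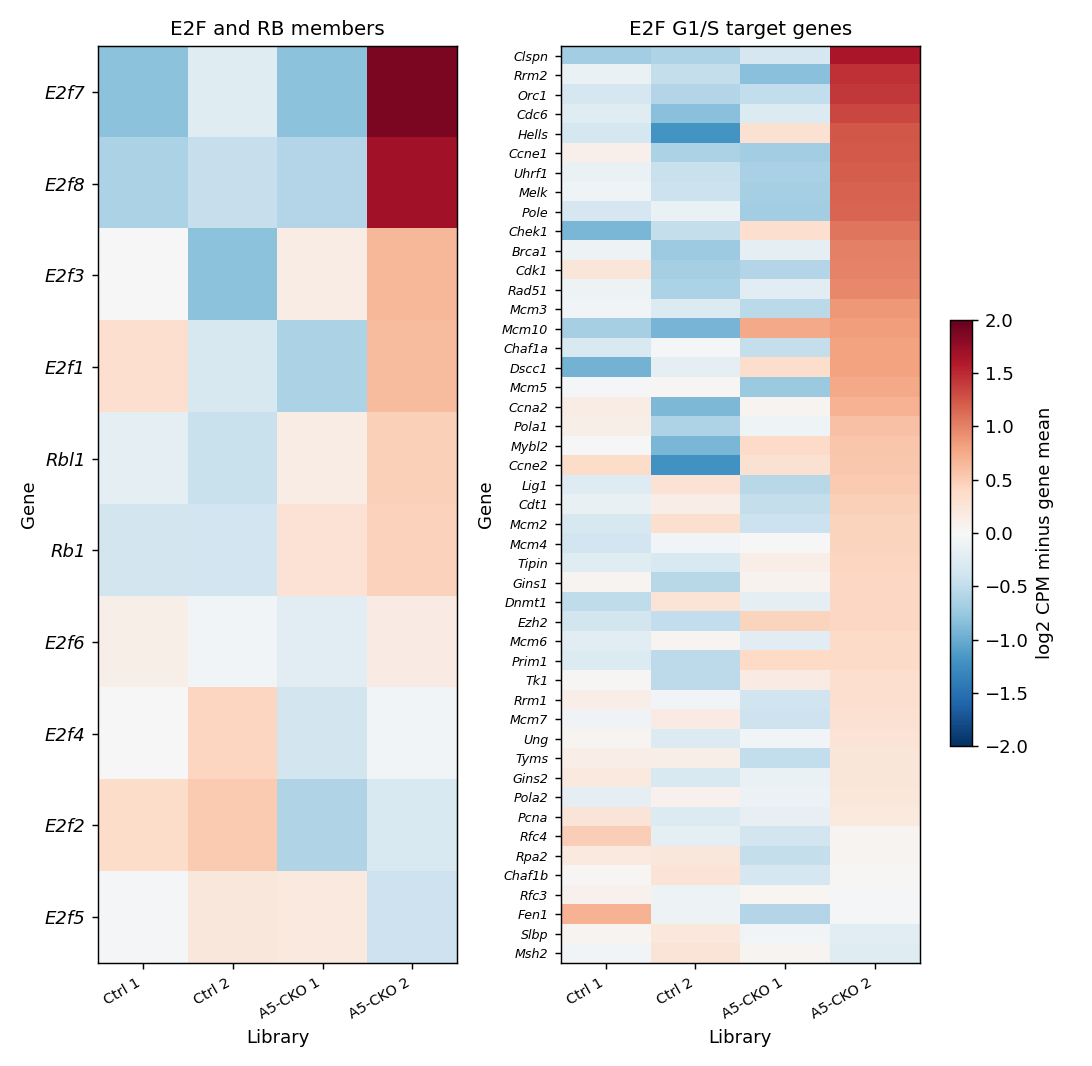
Log2 CPM minus the gene's mean over the 4 libraries for the 10 genes (left) and the E2F G1/S target genes (right, 1 of the 48 tested not shown), sorted by A5-CKO 2. The column of A5-CKO 2 is the highest for 7 of the 10 genes and 38 of the 48 targets tested, with medians of 0.47 and 0.48, whereas E2f2 is low in both A5-CKO columns.

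The members, Rbl1 aside, were also set beside the gene of 92 tested pathway genes whose log2 deviations over the 4 libraries were nearest to their own (Euclidean distance). E2f8 was nearest to Clspn (distance 0.30), and so was E2f7 (0.68), though E2f7 lay nearer to E2f8 (0.43). E2f1 was nearest to Mcm3 (0.47), E2f3 to Ccna2 (0.20) and Rb1 to Ezh2 (0.20). E2f2 was nearest to Rbbp4 (0.32), a histone-binding subunit of the MuvB core, E2f4 to L3mbtl2 (0.14), E2f5 to Cdkn1b (0.056) and E2f6 to Cdkn2d (0.14). With 4 libraries these distances are a description of likeness only.

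The partners of the family showed no change that passed the test. None of the tested genes of these lists had an adjusted p under 0.05 in edgeR, and 0% of all genes tested did. Of the list genes, 1 had an unadjusted p under 0.05, Mga of the E2F6 complexes, whereas 9.18% of all genes tested did. Tfdp2, a DP partner that lets E2Fs bind DNA, had 41.4 and 46.0 CPM in Ctrl against 67.2 and 60.8 in A5-CKO (log2 fold change 0.55, SE 0.28, adjusted p = 0.548 in edgeR), whereas Tfdp1 had 35.7, 36.8, 25.7 and 40.6 CPM. The DP and pocket list was thus split, with 1 of 3 fold changes above 0. The DREAM complex, the MuvB core with E2F4 and the pocket protein p107 or p130, represses cell cycle genes. The list of 7 MuvB genes also held partners of MuvB outside DREAM, Mybl2 among them. Of the 7, 4 had a fold change above 0, and the smallest p were those of Rbbp4 (log2 fold change -0.63) and Mybl2 (0.89). Rbbp4 had 132 and 126 CPM in Ctrl against 77.5 and 88.8 in A5-CKO, lower in both as E2f2 was. Of the 7 tested partners of E2F6 in Polycomb-type complexes, 3 were above 0. Mga, a scaffold of these complexes, had 25.9 and 29.9 CPM in Ctrl against 75.6 and 40.0 in A5-CKO (log2 fold change 1.05, SE 0.39, adjusted p = 0.528 in edgeR).

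Of the 8 cyclins and kinases that phosphorylate RB, 4 had a fold change above 0. Cdk4 had 148 and 131 CPM in Ctrl against 85.3 and 95.2 in A5-CKO (log2 fold change -0.63, SE 0.28, adjusted p = 0.528 in edgeR), and its partner Ccnd3 had 227 and 332 in Ctrl against 142 and 201 in A5-CKO (-0.71). Both were lower in both A5-CKO libraries. Of the 7 inhibitors of these kinases, 4 were above 0. Cdkn1a (p21) had 296 and 139 CPM in Ctrl against 343 and 417 in A5-CKO (log2 fold change 0.81, SE 0.43, adjusted p = 0.553 in edgeR), and next by p came Cdkn2b (0.41), whose values overlapped. Of 9 corepressors recruited by pocket proteins, 5 were above 0, and the smallest p were those of Arid4a (0.78), an RB-binding protein with 18.5 and 17.8 CPM in Ctrl against 36.1 and 26.4 in A5-CKO, and Sin3b (-0.27). Of 4 tested genes that turn over or assist E2Fs, 2 were above 0, and the smallest p were those of Fzr1 (-0.63), an activator of the anaphase-promoting complex, and Emsy (0.53).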

How the data were processed

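RNA-seq gene counts of 4 libraries were analysed. The authors trimmed reads with Trim Galore 0.6.10, removed ribosomal RNA reads, aligned with HISAT2 2.2.1 to mm10.p6, removed duplicates with sambamba and deposited raw counts per gene from featureCounts 2.0.3; their methods describe the counting under MeRIP-seq, and the strand setting is not given in the sources used here. Versions are those of the submitters' processing notes. Removal of duplicates can compress highly expressed genes.

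From the counts, edgeR 4.0.16 (R 4.3.3) was run with TMM, filterByExpr, glmQLFit and glmQLFTest, with Benjamini-Hochberg adjustment over 16661 genes (common dispersion 0.173) and genotype as the only term. The standard error (SE) of a fold change was taken as its size over the root of the F statistic. CPM uses TMM-scaled library totals, and log2 deviations use edgeR's prior count. Alternatives were other scaling factors, other filters, DESeq2 1.42.0, limma 3.58.1 voom, the replicate number as a block and each library left out. A correction for transcript length and GC content (splines with 4 degrees of freedom per library, 15237 genes) and a crossed block were added after seeing the data. In a check on simulated counts at the common dispersion, the test did not recover all changed genes. A gene without a call can therefore still differ.

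The members and gene lists were chosen with earlier results of these data known. All members were named, with, from each list, genes at an unadjusted p under 0.05 or, where none passed, the 2 with the smallest p, and for the targets the 5 smallest in each direction. Further genes (Tfdp1, Rbl2 beside the pocket proteins, genes that share exon bases with a member, and the marker and targeted genes) are named as context. The pathway gene nearest to Rbl1 is not reported here. The AT1, transitional and club or ciliated marker lists summed to 1249 to 1498, 959 to 2690 and 1284 to 2887 CPM. Of the AT1 markers, Ager had at most 6 counts in a library.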

Additional observations from a re-analysis of the deposited data

How the results depend on the processing

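No member had an adjusted p under 0.05 in any of the 16 alternatives. At an unadjusted p under 0.05 there were 2 members in place of 1 with RLE factors, upper-quartile factors, total counts only, at least 10 counts in every sample, both DESeq2 fits (same genes, default filters), limma voom and the crossed replicate block. They were E2f2 and Rb1, except with total counts only, where they were Rb1 and Rbl1. With each library left out there were 0 to 2, with 0 when A5-CKO 2 was the one and 2, E2f7 and E2f8, when it was A5-CKO 1. The signs of E2f2, E2f3, E2f4, Rb1 and Rbl1 held in all 16. E2f1 had a log2 fold change of -0.0047 with the replicate block and -0.0013 with the crossed one, and from -0.69 to 0.60 with each library left out. E2f5 had 0.14 with total counts only, and from -0.52 to 0.092 with each library left out. E2f6 had 0.0068 with RLE factors, 0.056 with upper-quartile factors, 0.27 with total counts only, 0.004 with the minimum of 10 counts, 0.0069 in DESeq2 on the same genes, 0.014 with the length and GC correction, 0.013 with that correction and the replicate block, and from -0.24 to 0.13 with each library left out. E2f7 ranged from -0.37 to 2.52 and E2f8 from -0.030 to 2.31 with each library left out. For the G1/S targets of E2F, 2 genes had an unadjusted p under 0.05, and there were 4 with RLE factors, upper-quartile factors, at least 10 counts in every sample, both DESeq2 fits and the crossed replicate block, 5 with total counts only, 1 with the length and GC correction, 0 with the replicate block with or without that correction, and 0 to 8 with each library left out, 8 of them without A5-CKO 1 and 0 without A5-CKO 2. Their median log2 fold change was -0.075 to 0.76 with each library left out and stayed above 0 in the other alternatives. The -0.075 was that without A5-CKO 2, where all genes tested had the same median. What caused these changes was not tested.

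The replicate numbers share only a number here, since the labels name no litter or batch, and the deviations of same-numbered libraries from the mean of their genotype had a correlation of -0.35 (across genes). With the replicate block, 754 genes had an unadjusted p under 0.05 in place of 1530, 454 with the length and GC correction as well, and E2f2 was the member among them in both. With the crossed replicate block, chosen after seeing the data, there were 2582, and 230 genes had an adjusted p under 0.05, none of them a member. With each library left out there were 738 to 1634, the 738 without A5-CKO 1.

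Each genotype has 2 libraries, which limits every value here. E2f7 and E2f8, with 10 to 26 counts in 3 of the libraries, are also limited by counting error.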

Other observations

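Among the pathway genes listed beside the family, 4 were listed at 0 counts in every library, Skp2, Cdc45, Atad2 and Ring1. Skp2 encodes the F-box protein that targets p27 for degradation, Cdc45 a part of the replicative helicase, Atad2 a chromatin regulator and Ring1 a subunit of Polycomb complexes. Other genes of replication and of these complexes were well detected in the same libraries, such as Mcm6 with 38.5 to 58.2 CPM and Rnf2 with 23.7 to 34.4 CPM. These genes were left out of the test, and the reason for the 0 values was not tested.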
